A study of Mus musculus with 19 samples.

Results

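The tumour suppressor p53 and 9 genes that it is known to switch on were described across 10 mouse liver tumours. The genes were chosen by name: Trp53, which encodes p53 itself, and the targets Cdkn1a, Mdm2, Ccng1, Trp53inp1, Bax, Bbc3, Sesn2, Eda2r and Phlda3. Each of the 10 symbols matched 1 Ensembl identifier, out of 39179 identifiers in the table. All 10 passed the filter on low counts, which kept 12462 genes.

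All tumours used came from male mice with 1 mutant copy of Ctnnb1 (Ctnnb1tm1Mmt, HET) and with both copies of a human MYC transgene, Gt(ROSA)26Sortm1(MYC)Djmy (HOM). The virus AAV8.TBG.PI.Cre.rBG was given at 640000000 genome copies per mouse, and its TBG promoter limits Cre to hepatocytes. The first allele makes a stabilised β-catenin after Cre and the second a MYC transgene that Cre switches on. Recombination of either allele in these tumours was not analysed here. The labels give no Trp53 allele and no age, and whether p53 was mutated in any tumour was not analysed here. The series holds 13 tumours, 3 control livers and 3 high AAV control livers. Of the 19 columns, only those of tumours 04 to 13 could be tied to a sample, so no comparison with liver outside the tumours was made. The column names carry 5 tags in 3 families, RMH4 (tumours 04 to 06), RMH18 (07 and 08) and RMH35 (09 to 13). The meaning of the tags is not labelled, and tumours that share one may come from 1 animal. Nothing in the labels says that the 10 tumours came from separate mice, so p-values measure only the spread between these samples.

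As background, p53 is a transcription factor that is held low in healthy cells because MDM2, an E3 ubiquitin ligase, marks it for destruction. DNA damage, oncogene activity and other stress free p53 from MDM2, so its activity is set mainly through its protein and much less through its mRNA. Active p53 stops the cell cycle through p21, the product of Cdkn1a, promotes death through Bax and Bbc3, and raises Mdm2, which closes a feedback loop. In liver, p53 limits the growth of damaged hepatocytes.

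The 10 libraries held between 11687034 and 36964427 gene counts, so that 3 counts correspond to 0.0812 to 0.257 CPM (counts per 1000000 counts). This floor covers counting error only. Levels are given as CPM scaled with TMM factors, which ranged from 0.927 to 1.11. The lowest count of a member in a tumour was 62, for Eda2r in tumour 07, so every member was measured well above the floor. The hepatocyte markers were present in all 10 tumours, with a summed level of 28571 to 43149 CPM. Endothelial markers summed to 71.1 to 512 CPM, with the highest level in tumour 07. Rpph1, an RNA without a poly(A) tail, stood at 30.0 to 51.8 CPM in tumours 05, 06 and 07 and at 0.756 to 4.28 CPM in the other 7.

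p53 binds a pair of 10-base elements, here called decamers, and these were looked for in the RefSeq promoter windows (GRCm38.p6) of the members. A window runs from 250 bases before a start site to 50 after it. A match to the p53 decamer consensus at all 10 bases was found in a window of 5 of the 9 members that have one, and in 9.55% of all 27025 genes with a window. Trp53inp1 had no entry. The consensus reads the same on both strands, so 1 search covers both. A pair of decamers with at most 13 bases between them was found for Cdkn1a and in 0.074% of all genes. The stretch before the start site is shown for the 4 target genes with a decamer that matched at all 10 bases. Capitals mark the matched decamers.
Cdkn1a, chr17:29090729-29090978, plus strand: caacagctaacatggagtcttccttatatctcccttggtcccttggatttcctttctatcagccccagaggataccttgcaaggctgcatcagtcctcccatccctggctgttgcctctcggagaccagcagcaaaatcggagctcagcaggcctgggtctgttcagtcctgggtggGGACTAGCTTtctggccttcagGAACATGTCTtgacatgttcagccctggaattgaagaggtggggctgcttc
Mdm2, chr10:117710759-117711008, minus strand: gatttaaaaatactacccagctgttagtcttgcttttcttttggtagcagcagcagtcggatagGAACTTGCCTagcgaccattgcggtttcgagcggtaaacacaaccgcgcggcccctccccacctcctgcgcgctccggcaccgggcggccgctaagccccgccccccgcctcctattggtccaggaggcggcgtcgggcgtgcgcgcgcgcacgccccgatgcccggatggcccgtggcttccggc
Ccng1, chr11:40755287-40755536, minus strand: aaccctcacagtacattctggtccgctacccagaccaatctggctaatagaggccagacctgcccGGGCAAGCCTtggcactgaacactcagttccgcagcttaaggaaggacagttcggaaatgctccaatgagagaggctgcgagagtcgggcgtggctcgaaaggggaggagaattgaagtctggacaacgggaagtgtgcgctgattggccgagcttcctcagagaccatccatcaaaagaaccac
Bax, chr7:45466899-45467148, minus strand: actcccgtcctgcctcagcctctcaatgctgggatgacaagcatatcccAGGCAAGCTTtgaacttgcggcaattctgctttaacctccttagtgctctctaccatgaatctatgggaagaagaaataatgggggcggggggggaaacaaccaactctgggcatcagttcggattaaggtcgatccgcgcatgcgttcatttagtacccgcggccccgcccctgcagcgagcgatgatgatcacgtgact
In the upstream Cdkn1a window the decamers began at positions -73 and -51 relative to the start site of that window. The 20 bases from the second of them miss a double site at 1 base. Another Cdkn1a window, chr17:29093519-29093818, lies downstream, so the pair is further away from the start site of that other window. In Ccng1 the decamer began at position -185, and the 20 bases that end with it also miss a double site at 1 base. The decamer began at position -186 in Mdm2 and -201 in Bax. The window of Trp53 itself also held 1, at position -75. The windows of Bbc3, Sesn2, Eda2r and Phlda3 held no decamer matched at all 10 bases, and the downstream Cdkn1a window held none. In a Bbc3 window the 20 bases from position -97 miss a double site at 3 bases, as do the best 20 bases in Bax. The best 20 bases miss at 5 in Sesn2 and Phlda3 and at 6 in Eda2r. A window without a full match can still hold a p53 site. These matches describe letters and were not tested as binding sites. Binding sites further away, such as the known one in the first intron of Mdm2, lie outside these windows.

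Trp53 (ENSMUSG00000059552, chr11:69580348-69591873) varied little between tumours. Its level was lowest in tumour 09 at 49.1 CPM, had a median of 66.6 CPM and was highest in tumour 07 at 84.1 CPM, a range of 1.71-fold. The mean was 66.8 CPM ± 11.4 (SD, n = 10). The SD of its log2 CPM was 0.25, below the median of 0.33 over all genes tested. Exons of Trp53 overlap those of Wrap53 on the opposite strand, and whether counting used the strand is not given in the sources used here. Trp63 and Trp73, the relatives of p53, were close to absent, with at most 0.628 and 0.128 CPM, and both had 0 counts in at least 1 tumour.

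Of the 9 targets, 8 had a wider range than Trp53, Bax being the exception. Of all 10 members, 7 differed by 2-fold or more between their lowest and highest tumour, beside 55.3% of all genes tested. The median SD of log2 CPM over the members was 0.46, against 0.33 for all genes. Trp53, Mdm2 and Bax stayed under 2-fold. Levels were also divided by exon length, counted over the exons of all annotated transcripts of a gene. That length can exceed the length of the transcript present, unequally between genes, so this comparison is rough. Bax had the highest mean level of the members at 54.6 CPM per kilobase and Eda2r the lowest at 2.01. Cdkn1a followed at 31.7 and Ccng1 at 18.3, while Trp53 stood at 9.06 and Mdm2 at 6.99.

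**Figure D1:**
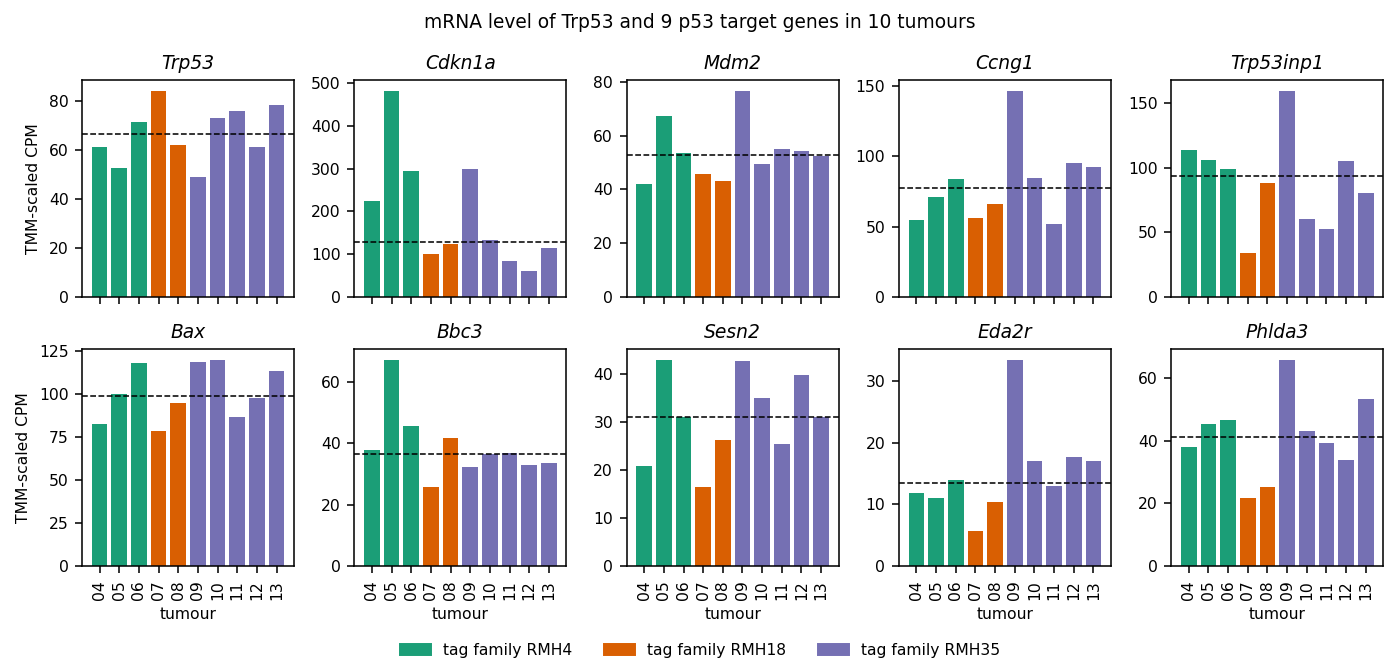
Level of each member in each tumour, as TMM-scaled CPM on linear axes that start at 0; each bar is 1 tumour, colours mark the tag families and the dashed line is the median of the 10 tumours. Trp53 runs from 49.1 to 84.1 CPM, while Cdkn1a runs from 60.9 to 482 CPM, and tumour 09 holds the highest bar for 5 genes.

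Cdkn1a (ENSMUSG00000023067, chr17:29090979-29100722) encodes p21, an inhibitor of cyclin-dependent kinases, and showed the widest range of the members. Its levels were 225, 482 and 294 CPM in tumours 04, 05 and 06, and 100 and 124 CPM in tumours 07 and 08. In tumours 09 to 13 they were 299, 133, 85.1, 60.9 and 115 CPM. The highest tumour, 05, thus stood 7.91-fold above the lowest, 12, and the tumours of the RMH4 family were all above 200 CPM together with tumour 09. The other 6 tumours lay between 60.9 and 133 CPM.

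Mdm2 (ENSMUSG00000020184, chr10:117688875-117710758), the target that feeds back on p53, had a narrow range. It was lowest in tumour 04 at 42.0 CPM, had a median of 52.9 CPM and was highest in tumour 09 at 76.7 CPM. Tumour 05 came second at 67.1 CPM, and the remaining 8 tumours fell between 42.0 and 54.9 CPM. Ccng1 (ENSMUSG00000020326, chr11:40748552-40755309) encodes cyclin G1, which recruits a phosphatase to MDM2. It ran from 52.0 CPM in tumour 11, over a median of 77.4, to 147 CPM in tumour 09. The second highest was tumour 12, at 95.3 CPM. In log2 CPM the gap between tumours 09 and 12 was 0.417 of the whole range. This was under Dixon's critical value for an outlier among 10 samples. None of 15 measures checked, all on the log2 scale, passed that value. Levels in CPM, where high values lie further apart, were not checked in this way. Ccng1 exons overlap those of Nudcd2 on the opposite strand.

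Trp53inp1 (ENSMUSG00000028211, chr4:11156441-11174379) encodes a nuclear protein that promotes p53-dependent death and autophagy. It ran from 34.4 CPM in tumour 07, over a median of 93.6, to 159 CPM in tumour 09, a range of 4.63-fold. Eda2r (ENSMUSG00000034457, chrX:97333837-97377234), a receptor of the TNF receptor family for ectodysplasin A2, followed the same extremes. It ran from 5.72 CPM in tumour 07, over a median of 13.5, to 33.4 CPM in tumour 09, a range of 5.84-fold. The second highest Eda2r level was 17.6 CPM, in tumour 12. Phlda3 (ENSMUSG00000041801, chr1:135766085-135769134), an inhibitor of AKT, also had its lowest level in tumour 07, at 21.9 CPM, and its highest in tumour 09, at 65.8 CPM, around a median of 41.2.

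Bax and Bbc3 act at the mitochondrion in cell death, Bax as a pore former and Bbc3, also called PUMA, as an activator of it. Bax (ENSMUSG00000003873, chr7:45461695-45466903) was the steadiest member, from 78.8 CPM in tumour 07 over a median of 99.1 to 120 CPM in tumour 10. Bbc3 (ENSMUSG00000002083, chr7:16308398-16318334) was lowest in tumour 07 at 25.8 CPM, had a median of 36.6 and was highest in tumour 05 at 67.2 CPM. Unlike the targets above, Bbc3 was below its median in tumour 09, at 32.3 CPM. Sesn2 (ENSMUSG00000028893, chr4:132492804-132510456) encodes sestrin 2, a leucine sensor that restrains mTORC1 and is also switched on by the stress factor ATF4. It ran from 16.5 CPM in tumour 07, over a median of 31.0, to 42.9 CPM in tumour 05, and tumour 09 was level with tumour 05 at 42.6 CPM.

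These extremes fell on few tumours. Tumour 09 was the highest for Mdm2, Ccng1, Trp53inp1, Eda2r and Phlda3, 5 of 10 members, beside 10.4% of all genes tested. Tumour 05 was the highest for Cdkn1a, Bbc3 and Sesn2, 3 of 10, beside 18.3% of all genes. Tumour 07 was the lowest for Trp53inp1, Bax, Bbc3, Sesn2, Eda2r and Phlda3, 6 of 10, beside 15.4% of all genes. Trp53 went the other way, being lowest in tumour 09 and highest in tumour 07. Because these tumours were singled out after their values were seen, the counts are descriptions and no test was made. With library totals in place of TMM factors, tumour 09 was the highest for 7 members.

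Relative to the median of the other 9 tumours, the members' median difference was 0.65 on the log2 scale in tumour 09 and -0.54 in tumour 07, while the median over all genes was within 0.02 of 0 in both. In tumour 09, Eda2r was higher by 1.35, Cdkn1a by 1.27 and Ccng1 by 1.05 on the log2 scale, so 3 of 10 members were at least 2-fold above the other tumours, beside 6.37% of all genes. In tumour 07, Trp53inp1 differed by -1.52 and Eda2r by -1.27 on the log2 scale, so 2 of 10 members were at least 2-fold below, beside 3.14% of all genes. In tumour 05, Cdkn1a differed by 1.96 on the log2 scale, and the members' median difference was 0.23.

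**Figure D2:**
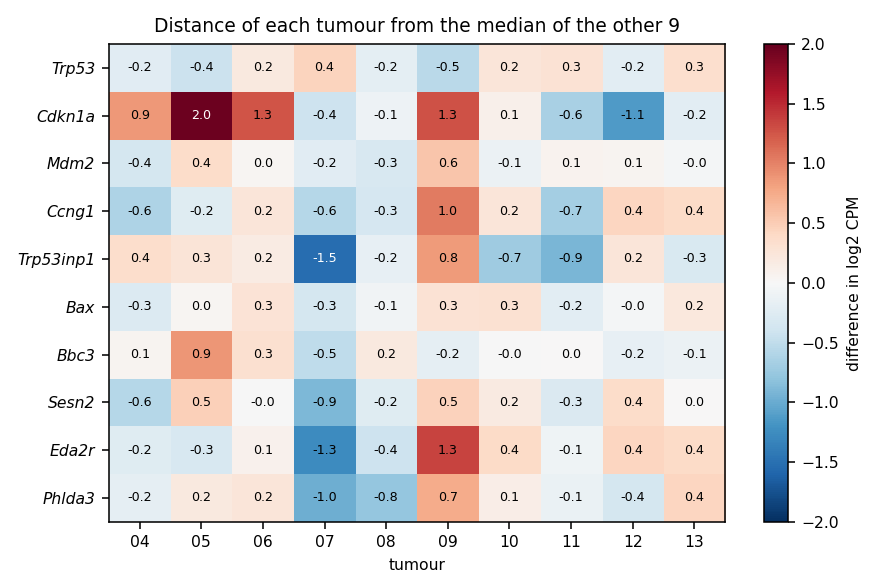
Difference in log2 CPM between each tumour (columns) and the median of the other 9, for each member (rows); red is higher and blue lower. The column of tumour 09 is red for 8 members and blue for Trp53 (-0.54) and Bbc3 (-0.18), and the column of tumour 07 is blue for 9 members.

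Other cell types differed between the same tumours. In bulk tumours, fewer cells of a type and less RNA per cell cannot be told apart. All 10 endothelial markers were at least 2-fold above the other tumours in tumour 07 and 7 of 10 in tumour 09. Their summed level was 512 CPM in tumour 07 and 319 CPM in 09, while the other 8 tumours had 71.1 to 222 CPM. The red blood cell markers reached 6181 CPM in tumour 07 and 1775 CPM in 09, beside 101 to 890 CPM elsewhere, and the stellate and fibroblast markers to 1602 and 1803 CPM, against 247 to 902 CPM. Macrophage markers summed to 233 CPM in tumour 07 and 282 CPM in tumour 09, within the range of 113 to 344 CPM of the others, lymphocyte markers to 14.1 and 17.0 CPM, beside 3.30 to 14.6 CPM elsewhere, and cholangiocyte markers to 76.8 and 134 CPM, beside 13.2 to 105 CPM. The lymphocyte markers Cd3d, Cd3g, Cd8a and Ms4a1 had 0 counts in at least 1 tumour. Tumours 07 and 09 were the 2 highest for endothelial markers, and 6 members had their lowest level in one and 5 their highest level in the other.

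Across all 10 tumours, the slope of each gene on the mean log2 CPM of the endothelial markers was fitted with edgeR's quasi-likelihood test. Of the 10 members 0 passed, 0 had an unadjusted p under 0.05 and 0 were called by DESeq2, beside 2.92% of all other genes rising and 0.313% falling and 14.1% at an unadjusted p under 0.05. The largest member slope was that of Cdkn1a, 0.59 ± 0.29 (SE) per log2 unit, with an adjusted p of 0.389 by edgeR with Benjamini-Hochberg adjustment. Without tumour 07 this slope was 0.99 with an adjusted p of 0.0333, so this call turned on that tumour. Without tumour 07, 9 of 10 slopes were positive instead of 4, and the median slope went from -0.02 to 0.15. In that fit 3 of 10 members (Cdkn1a, Trp53inp1 and Trp53) had an unadjusted p under 0.05. The 14.1% belongs to the fit with all 10 tumours, and the share of all genes without tumour 07 is not given here. For Cdkn1a, the part of the vessels was not tested further.

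Whether targets followed the mRNA of the factor was asked with the slope on log2 CPM of Trp53. Of the 9 targets, 9 had a negative slope, with a median of -0.92 log2 units per log2 unit of Trp53, against a median of -0.02 over all genes. Of the 9 targets 0 passed the adjusted threshold with edgeR, 4 had an unadjusted p under 0.05, and 1 was called by DESeq2. Over all genes 0% rose and 0% fell past the threshold in edgeR, where 1202 had an unadjusted p under 0.05 (9.65%), and DESeq2 called 23.

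Trp53inp1 had the smallest p of the 9. Its slope was -2.06 ± 0.44 (SE) per log2 unit of Trp53, with an unadjusted p of 0.000641 and an adjusted p of 0.447 by edgeR's quasi-likelihood test. DESeq2 gave a slope of -2.05 with an adjusted p of 0.0136. Leaving out 1 tumour at a time moved the slope between -2.36 and -1.64, and with the tag family as a term it was -1.89. Over the 10 tumours Pearson's r between both genes was -0.85 and Spearman's rho -0.94, given as a description of libraries that share scaling. Only 15 of the 12461 other genes ranked lower in r with Trp53.

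The other slopes on Trp53 were less certain. Cdkn1a had -2.34 ± 0.85 (SE), with an unadjusted p of 0.0188 and an adjusted p of 0.481 by edgeR. Sesn2 had -1.09 ± 0.45 and Mdm2 -0.66 ± 0.30. Bax had -0.18 ± 0.32, the slope closest to 0. Tumour 09, which had the least Trp53, carried part of this: without it the median slope over the 9 targets was -0.32, with 1 of 9 slopes positive, and the slope of Eda2r moved from -1.35 to -0.09. Other slopes became steeper without tumour 09, that of Bbc3 going from -0.79 to -1.34, with an unadjusted p of 0.00507 by edgeR, and that of Cdkn1a from -2.34 to -2.55. Without tumour 07, 2 of 9 targets instead of 4 had an unadjusted p under 0.05, and the slope of Bax turned to 0.05. The share of all genes under that p without tumour 07 is not given here. A range of 1.71-fold in Trp53 also limits what a slope on it can show.

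**Figure D3:**
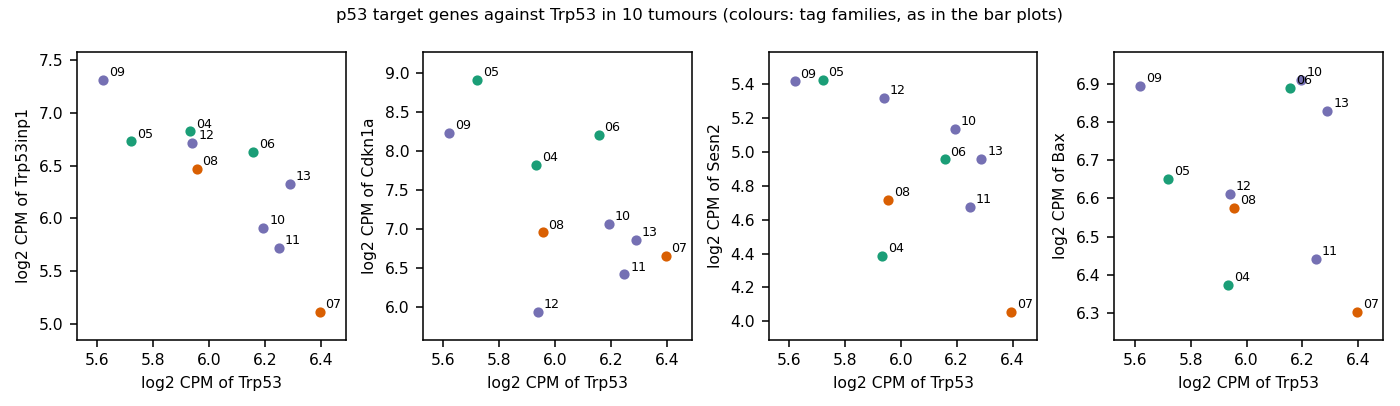
Log2 CPM of Trp53inp1, Cdkn1a, Sesn2 and Bax against log2 CPM of Trp53; each point is 1 tumour, labelled by its number and coloured by tag family as in the bar plots. Trp53inp1 descends from tumour 09 to tumour 07 (slope -2.06), while Bax shows little relation (slope -0.18).

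The same question was asked of Mdm2 and Cdkn1a, both known targets of p53. On Mdm2, 8 of 9 members had a positive slope and Trp53 a negative one, with a median of 1.19 log2 units per log2 unit, against 0.02 over all genes. Of the 9 members 0 passed with edgeR and 0 with DESeq2, while 4 had an unadjusted p under 0.05. Over all genes 0% rose and 0% fell past the threshold, with 779 genes (6.25%) at an unadjusted p under 0.05 and 9 called by DESeq2. The 4 were Sesn2 (slope 1.23 ± 0.37, SE), Eda2r (1.58 ± 0.53), Phlda3 (1.19 ± 0.39) and Ccng1 (1.19 ± 0.39), each with an adjusted p of 0.795 by edgeR's quasi-likelihood test. The number under an unadjusted p of 0.05 was 7 of 9 without tumour 04, 2 with the tag family as a term, 1 without tumour 09 and 0 without tumours 05 and 09. Without tumours 05 and 09 3 of 9 slopes turned their sign, those of Cdkn1a, Trp53inp1 and Trp53, to -0.90, -0.28 and 0.40.

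On Cdkn1a, 8 of 9 members also had a positive slope, with a median of 0.14 log2 units per log2 unit of Cdkn1a. Of the 9 members 0 passed with edgeR, 1 had an unadjusted p under 0.05 and 0 were called by DESeq2, beside 3.78% of all genes rising and 2.26% falling. Over all genes 23.2% had an unadjusted p under 0.05 and DESeq2 called 1361. The median slope was 0.26 without tumour 12 and 0.27 with the tag family or Rpph1 as a term. With the endothelial score as a term it was 0.31. In these fits, in that order, 4, 4, 5 and 3 of 9 members had an unadjusted p under 0.05. The 23.2% belongs to the fit without further terms, and the share of all genes in these fits is not given here. The median slope was 0.088 without tumour 07 and 0.069 without tumour 09. Without tumour 09, 6 of 9 slopes were positive and those of Ccng1 and Eda2r turned negative. In the fit without further terms the member under an unadjusted p of 0.05 was Bbc3. Its slope was 0.27 ± 0.09 (SE), with an adjusted p of 0.104 by edgeR. With the endothelial score as a term its adjusted p was 0.0399, and without tumour 09 it was 0.0435. Without tumour 05 its slope was 0.12 with an adjusted p of 0.645. The call for Bbc3 thus depended on these 2 tumours and on the terms in the fit.

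**Figure D4:**
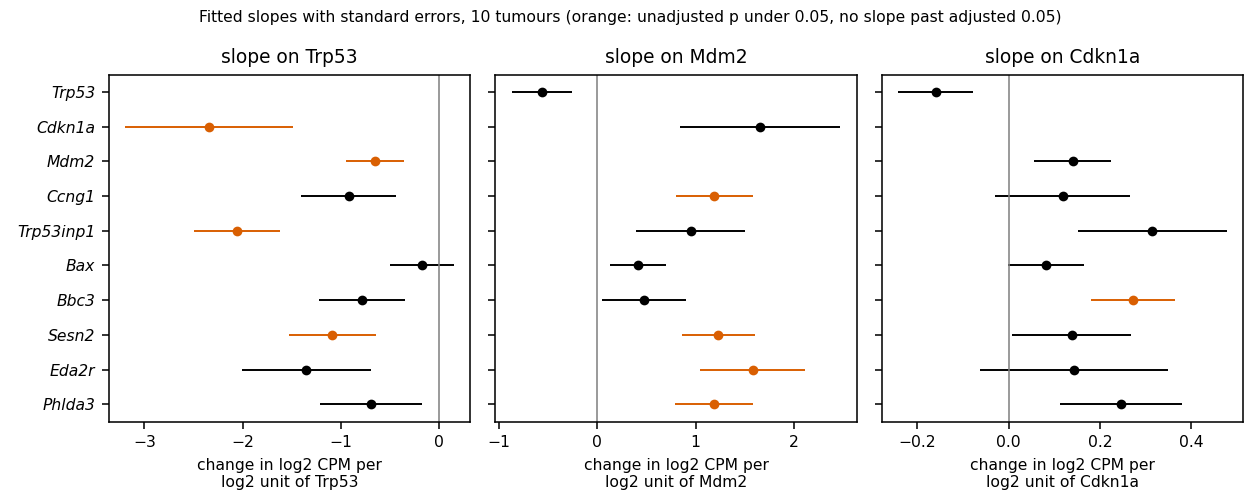
Fitted change in log2 CPM of each member (rows) per log2 unit of Trp53, Mdm2 or Cdkn1a (panels), with bars of 1 standard error, over 10 tumours; orange marks an unadjusted p under 0.05. All 9 slopes on Trp53 lie below 0, 8 of 9 on Mdm2 and on Cdkn1a lie above 0, and none passed the adjusted threshold.

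The 9 targets were also compared among themselves. Of their 36 pairs, 34 had a positive Pearson r of log2 CPM over the 10 tumours, with a median of 0.61 and a range of -0.10 to 0.84. Over all pairs of tested genes 49.9% were positive and the median r was -0.0012. Without tumour 09 the median was 0.47 and 34 pairs were positive, and without tumours 05 and 09 it was 0.48 with 31. These values describe 10 libraries that share a scaling and carry no test.

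By their pattern over the tumours, different genes lay closest to each of the 3 best known members. The 5 genes most like Trp53 by Pearson r were Nt5m (0.95), Npepl1 (0.94), Pacsin3 (0.94), Mrpl57 (0.92) and Emc4 (0.92), none of them a listed p53 gene. The 5 most like Cdkn1a were Card19 (0.98), Tes (0.98), ENSMUSG00000046993 (0.98), Anxa2 (0.97) and Arl8a (0.97). The 5 most like Mdm2 were Apaf1 (0.93), Gm11488 (0.89), Dnmt3a (0.87), Cdc5l (0.87) and Mapkapk3 (0.86). Apaf1, the scaffold of the apoptosome, is itself on the list of p53 targets below. With Mdm2, Sesn2 ranked 65 and Phlda3 129 among 12461 genes, while Cdkn1a ranked 1233.

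The tag families were compared next, since the 3 RMH4 tumours all had high Cdkn1a. Mean Cdkn1a was 334 CPM ± 133 (SD, n = 3) in RMH4, 112 CPM ± 16.6 (SD, n = 2) in RMH18 and 139 CPM ± 93.9 (SD, n = 5) in RMH35. Phlda3 was lowest in RMH18, at 23.5 CPM ± 2.32, against 43.2 CPM ± 4.60 in RMH4 and 47.0 CPM ± 12.7 in RMH35. Eda2r was likewise lowest in RMH18, at 8.08 CPM ± 3.33, with 12.3 CPM ± 1.46 in RMH4 and 19.6 CPM ± 7.93 in RMH35. For these 2 of 10 members both RMH18 tumours lay below every other tumour, as they did for 2.22% of all genes. By edgeR's quasi-likelihood F test 0 of 10 members differed between families, 4 had an unadjusted p under 0.05, and DESeq2 called 0. Over all genes 1 of 12462 was called, 0.00802%, while 1740 had an unadjusted p under 0.05 and DESeq2 called 499. The unadjusted and adjusted p were 0.00848 and 0.233 for Phlda3, 0.0136 and 0.265 for Eda2r, 0.0218 and 0.290 for Cdkn1a and 0.0472 and 0.356 for Bbc3, all by edgeR. Without tumour 09, Cdkn1a passed with an adjusted p of 0.0439.

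Tumours with the same tag also differed. Tumours 09 and 10 share a tag, yet Trp53inp1 was 2.65-fold, Cdkn1a 2.25-fold and Eda2r 1.97-fold higher in tumour 09. Tumours 07 and 08 share another, and Trp53inp1 was 2.57-fold higher in tumour 08. Tumours 05 and 06, which share a tag as well, differed most in Cdkn1a, by 1.64-fold.

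p21 holds cells before S phase, so the members were also set against a mean of 18 genes of dividing cells. The cycling score was highest in tumour 08 (4.63) and lowest in tumour 05 (3.31), the tumour with the most Cdkn1a, in mean log2 CPM. Over the 10 tumours 0 of 10 members had a slope past the threshold with edgeR, 0 had an unadjusted p under 0.05, and DESeq2 called 0. Over all other genes 0% rose and 0% fell, with 645 (5.18%) at an unadjusted p under 0.05 and 38 called by DESeq2. The slope of Cdkn1a was -0.88 ± 0.63 (SE), with an adjusted p of 0.935 by edgeR, and it was -0.15 without tumour 05 and turned to 0.09 with the tag family as a term.

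A wider list of 32 other p53 targets, 31 of them tested, was described in the same 3 tumours. In tumour 09, 7 of the 31 were the highest (Ak1, Apaf1, Perp, Pidd1, Polk, Psrc1 and Tnfrsf10b, listed here after their values were seen) and 7 were at least 2-fold above the other tumours, beside 10.4% and 6.37% of all genes. The median difference of the list was 0.37 on the log2 scale. Ak1, which encodes an adenylate kinase, had 27.1 CPM in tumour 09 and 0.883 to 3.46 CPM in the others. Psrc1, a microtubule regulator named after its values were seen, stood at 106 CPM in tumour 09 and at 15.8 to 46.6 CPM elsewhere. Pmaip1, which encodes the death activator NOXA, did not pass the filter, with 7.04 CPM in tumour 09 and 0.191 to 1.34 CPM elsewhere.

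In tumour 05, 9 of the 31 were the highest, among them Btg2, Ddit4, Fas, Gadd45a, Gdf15, Plk3, Rrm2b and Xpc, again listed after their values were seen, beside 18.3% of all genes. At least 2-fold above the other tumours were 8 of the 31, beside 6.34% of all genes. The median of the list was -0.02 on the log2 scale there. Gadd45a, a regulator of growth arrest, had 47.5 CPM in tumour 05 and 2.40 to 17.5 CPM elsewhere, and Btg2, an antiproliferative factor, had 672 CPM in tumour 05 and 462 CPM in tumour 06. ATF4 targets, which respond to amino acid and endoplasmic reticulum stress, were high in the same tumour, with 5 of 9 at least 2-fold above the others, beside 6.34% of all genes, and a median difference of 1.03 on the log2 scale. Among them Ddit3, which encodes CHOP, had 343 CPM in tumour 05 and 17.2 to 126 CPM elsewhere. Markers of resident liver macrophages were low in tumour 05. Clec4f had 0.574 CPM there and 15.5 to 59.4 CPM elsewhere, and Cd5l had 2.42 CPM and 19.9 to 91.8 CPM elsewhere. Over the 5 macrophage markers tested the median difference was -1.29 on the log2 scale, while Cd68 was highest in tumour 05, at 68.3 CPM. Rpph1 stood at 40.3 CPM in tumour 05, beside 0.756 to 51.8 CPM elsewhere. The part of ATF4 targets, macrophages or Rpph1 in the levels of the p53 targets was not tested.

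In tumour 07 the wider list was less low than the members. Its median difference was -0.13 on the log2 scale, and 5 of 31 were lowest there, beside 15.4% of all genes. Of the 31, 4 were at least 2-fold above the other tumours and 1 was at least 2-fold below, beside 5.76% and 3.14% of all genes. The ATF4 targets were low in tumour 07, with 4 of 9 at least 2-fold below the others, beside the same 3.14%, and a median difference of -0.81 on the log2 scale. Their part in the low members there was not tested.

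The wider list was also set against Cdkn1a. Of its 31 genes, 6 rose with Cdkn1a (among them Btg2, Gadd45a, Gdf15, Ddit4 and Tnfrsf10b) and 1, Fdxr, fell, beside the shares of 3.78% and 2.26% over all genes. Gadd45a had a slope of 1.14 ± 0.19 (SE), with an adjusted p of 0.00885 by edgeR's quasi-likelihood test, and Btg2 had 1.34 ± 0.26 with an adjusted p of 0.0165. The median slope of the list was 0.08, against 0.00 over all genes. Of 9 ATF4 targets tested, 3 also rose, namely Ddit3 (1.20 ± 0.24), Chac1 (1.26 ± 0.25) and Nupr1 (1.08 ± 0.26). Cdkn1b, which encodes p27, rose by 0.42 ± 0.11 per log2 unit, 1 of 4 other CDK inhibitors tested. The macrophage marker Cd68 rose by 0.86 ± 0.15, 1 of 5 markers tested, and the hepatocyte markers Ttr and Serpina1a had slopes of -0.46 ± 0.10 and -0.59 ± 0.14, 2 of 8. The number of genes called on Cdkn1a went from 753 to 6 without tumour 05 and to 10 with the tag family as a term. Over the wider list and the other lists 17 genes were called on Cdkn1a. Without tumour 05, 0 of the 17 passed and with the tag family as a term 1 did. In both fits 17 kept their sign and 15 had an unadjusted p under 0.05. The share of all genes under that p in these fits is not given here. The slopes of Gadd45a and Btg2 were 0.78 and 1.22 without tumour 05, with adjusted p of 0.166 and 0.168 by edgeR.

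On Trp53 and on Mdm2, 0 of the 31 passed with edgeR. On Trp53 23 of 31 slopes were negative and 6 had an unadjusted p under 0.05, and on Mdm2 22 of 31 were positive and 8 had one. On the endothelial score 1 of 31 passed, Plk2, with a slope of 0.51 ± 0.12 (SE) and an adjusted p of 0.0467 by edgeR, and 10 of 31 had an unadjusted p under 0.05. Over all genes the shares at an unadjusted p under 0.05 were 9.65%, 6.25% and 14.1% in these 3 fits.

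**Figure D5:**
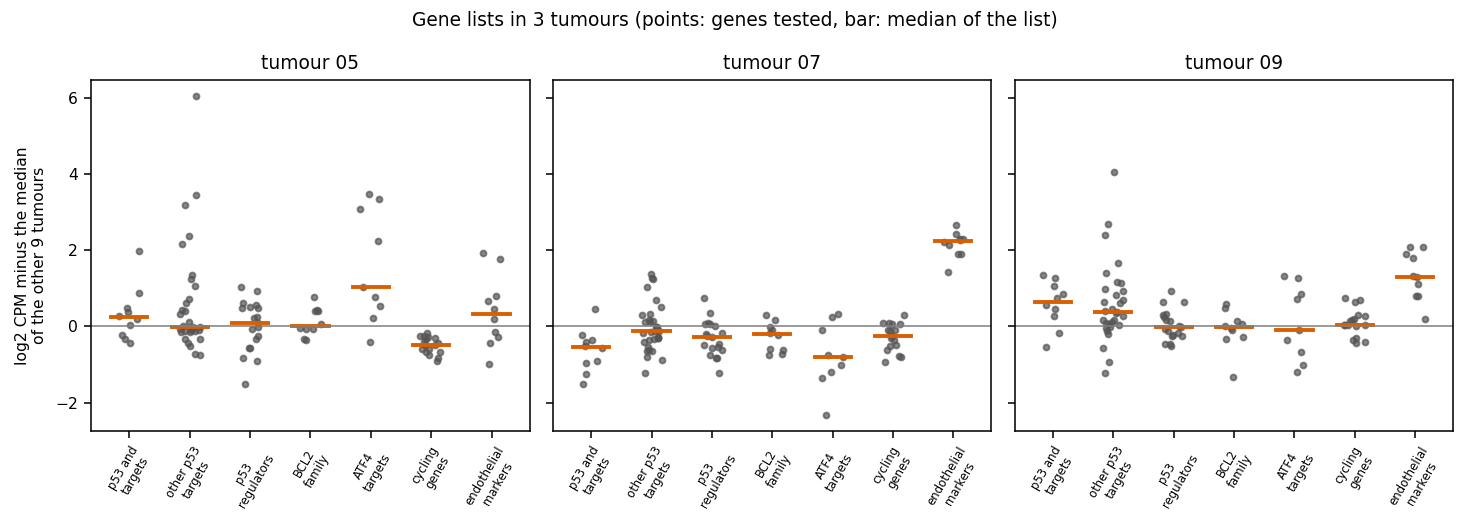
Difference in log2 CPM from the median of the other 9 tumours for the tested genes of 7 lists, in tumours 05, 07 and 09; each point is 1 gene and the bar is the median of its list. The p53 members sit at a median of 0.23, -0.54 and 0.65, the ATF4 targets at 1.03, -0.81 and -0.09 and the endothelial markers at 0.33, 2.23 and 1.30.

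The regulators of p53 were also listed. Of 20, 19 were tested, with a median SD of log2 CPM of 0.33, the same as that of all genes. Mdm4, which holds p53 inactive and was named after its values were seen, ran from 9.79 CPM in tumour 07 to 24.1 CPM in tumour 13. Cdkn2a, whose product ARF blocks MDM2, did not pass the filter and had 0.263 to 2.68 CPM. The most abundant regulators were Huwe1 and Usp7, a ligase and a deubiquitinase of the pathway, with 171 to 376 CPM and 45.8 to 79.3 CPM. On Cdkn1a 1 of 19 rose, Rchy1, a p53 target and ligase of p53, with a slope of 0.39 ± 0.09 (SE). Cop1 and Prkdc, 2 of 19, fell, with slopes of -0.30 ± 0.08 and -0.45 ± 0.12. Without tumour 05 the slopes of Rchy1, Cop1 and Prkdc were 0.32, -0.29 and -0.41, and none passed. On Trp53, Mdm2, the cycling score and the endothelial score 0 of 19 passed.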

How the data were processed

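Polyadenylated RNA of 10 liver tumours was analysed. The authors deposited a table of raw read counts per Ensembl gene, not normalised. Per the submitters' processing notes, TopHat2 and HTSeq were used with GRCm38, while the study's mapping text names other programs. Whether counting used the strand is not given in the sources used here. A column was tied to a tumour where its library number occurred in 1 title only, which assumes that both numberings agree. The other 9 of 19 columns were not used here. The 5 summary lines were left out, and reads without a unique position took 45.4% to 57.9% of each column. Gene counts came to 11687034 to 36964427 a library, and floors cover counting error only.

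Symbols and exon lengths came from GENCODE M39 (34199 of 39179 identifiers, 87.3%) and positions and promoters from RefSeq on GRCm38.p6. Genes were filtered with filterByExpr as 1 group, scaled with TMM from the kept genes, and tested in edgeR 4.0.16 (R 4.3.3, limma 3.58.1) by quasi-likelihood F tests with Benjamini-Hochberg adjustment over all genes and a threshold of 0.05. Log2 CPM used a prior count of 2, and DESeq2 1.42.0 was an alternative. The fits were tested on simulated data. All members were named, and from other lists the genes that passed a test and otherwise at most the 5 with the largest SD and the 5 most abundant, not all of which are named. The values of 1 listed gene are not reported here. The members and lists were chosen with earlier results of these data known. Figures were drawn with matplotlib 3.10.9.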

Additional observations from a re-analysis of the deposited data

How the results depend on the processing

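Of 175 recomputed counts, 143 stayed within 1.5 times the reported one. Most of these were counts of 0 that stayed 0, so this share says little about the counts above 0. Of 601 recomputed slopes of members, 37 turned their sign, none of these with an unadjusted p under 0.05: 2 on Trp53, 2 on Cdkn1a, 4 on Mdm2, 15 on the cycling score and 14 on the endothelial score. With DESeq2 the number of genes called was 23 on Trp53 with 1 member, 1361 on Cdkn1a, 9 on Mdm2, 38 on the cycling score, 755 on the endothelial score and 499 between tag families, against 0, 753, 0, 0, 402 and 1. With Rpph1 as a term it was 2 on Trp53 and 141 on Cdkn1a. With the tag family as a term it was 10 on Cdkn1a and 15 on Mdm2, and with the endothelial score as a term 1 member was called on Cdkn1a. Without the filter it was 2 on Mdm2 and 23 between families, and with only the families of 3 or more tumours it was 3. Leaving out each tumour in turn gave 6 to 1117 genes and 0 to 1 members on Cdkn1a and 0 to 175 genes and 0 to 1 members between families. Leaving out tumour 05, 07 or 09 gave 0 to 1 members on the endothelial score. Leaving out tumours 05, 07 and 09 on the cycling and endothelial scores, tumours 05 and 09 together on Mdm2, TMM factors from all genes for the spread, and other scalings of the counts of extremes in tumours 07 and 09 were chosen after seeing the data. The cause of these shifts was not tested. No paired analysis was possible because the tumours formed 1 group and the control columns were not used. The lowest count of a member was 62, and the number of mice behind the 10 tumours is not known.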

Other observations

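The BCL2 family, the switch that Bax and Bbc3 act on, was described as a further group. Of 13 listed genes 10 were tested, and 6 of them differed by 2-fold or more between tumours, beside 55.3% of all genes. Mcl1, a protein that protects cells from death, was the most abundant and one of the steadiest, from 134 CPM in tumour 08 to 203 CPM in tumour 11. Bcl2l1, which encodes the protective BCL-XL, ran from 53.6 CPM in tumour 12 to 148 CPM in tumour 05, the same tumours as the extremes of Cdkn1a. Bok was highest in tumour 04, at 84.5 CPM, and lowest in tumour 12, at 22.6 CPM. Bmf ran from 1.71 CPM in tumour 12 to 12.4 CPM in tumour 10. Of the 10, 0 passed in any of the 6 fits with edgeR, and 0, 1, 1, 0, 1 and 1 had an unadjusted p under 0.05 on Trp53, Cdkn1a, Mdm2, the cycling score and the endothelial score and between tag families, beside 9.65%, 23.2%, 6.25%, 5.18%, 14.1% and 14% of all genes.

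The other CDK inhibitors were at lower levels than Cdkn1a. Cdkn1b was highest in tumour 05, at 55.9 CPM, beside 16.2 to 30.1 CPM elsewhere. Cdkn2c was highest in tumour 08, at 35.6 CPM, which also had the highest cycling score. Cdkn2a and Cdkn2b did not pass the filter and reached at most 2.68 and 3.49 CPM.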
